A study of Homo sapiens with 3 samples.

Results

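The MYC, MAX and MXD network is a set of 10 genes, chosen by name from the 52992 genes whose transcripts were measured. They are the activators MYC and MYCL, their shared partner MAX, the 6 MAX partners that oppose them (MXD1, MXD3, MXD4, MXI1, MNT and MGA), and MLX, a relative of MAX. All 10 passed the filter on low counts and were tested. Of their 88 listed transcripts, 48 had at least 20 estimated counts in a library. RNA was measured in TE5, an established line of human esophageal squamous cell carcinoma, after transfection with a scrambled control (1 library, called scramble) or with short hairpin RNA against the transcription factor KLF5 (2 libraries, called shKLF5 libraries 1 and 2), all harvested at 48 h. The labels do not say whether the 2 shKLF5 libraries are separate hairpins or separate cultures. The spread behind the p-values comes only from how far those 2 libraries lie apart over the genes, possibly for technical reasons alone. For each gene it was largely borrowed from the other genes. Scramble has no replicate, and its variation was taken to equal that of the shKLF5 libraries. The design asks which genes change when KLF5, a member of the proposed core circuit of this cancer, is reduced.

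The libraries held between 32720563 and 33544752 estimated counts, of which mitochondrial genes took 31.1% to 38.1%, most in scramble. KLF5 itself stood at 316 CPM (counts scaled to a common library size after TMM, the trimmed mean of log ratios) in scramble against 37.2 and 44.0 in shKLF5 libraries 1 and 2. Its log2 fold change was -2.96 (SE 0.34), and it too missed the threshold of 0.05 once adjusted over all genes (edgeR adjusted p = 0.182). The 10 markers of squamous epithelium each had at least 10 counts in every library and were all lower by value in both shKLF5 libraries. Their summed TPM (a level per transcript length, scaled to a fixed library total) was 4023 in scramble, 1234 in library 1 and 704 in library 2. The lists for other cell types were low. In scramble and in libraries 1 and 2 the summed TPM was 17.4, 26.7 and 15.8 for 7 fibroblast genes and 0.527, 2.36 and 3.12 for 6 leukocyte genes. It was 0.324, 1.09 and 1.36 for 4 endothelial genes and 0.0616, 0.180 and 0.143 for 5 glandular genes, with MUC2 at 0 in every library. Their part in the results was not tested. In such bulk samples fewer expressing cells and less RNA per cell cannot be told apart.

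MYC proteins bind DNA only as dimers with MAX, at a palindrome called the E-box, and there they raise transcription of genes for growth, ribosome assembly and nucleotide synthesis. The MXD proteins, MXI1 and MNT bind the same sites as dimers with MAX and bring in the SIN3 and histone deacetylase corepressors, while MGA works within a Polycomb complex, PRC1.6. MLX pairs with some of the same partners and also with the nutrient sensors MondoA and ChREBP. In stratified epithelia MYC is known from the proliferating basal layer and MXD1 from cells that leave it.

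The E-box has the letters CACGTG and reads the same on both strands. RefSeq promoter windows of 300 bases around the start site (GRCh38.p14) were matched for 9 of the 10 genes, 14 windows in all, with that of MYC not used here. An E-box was found in 3 of them, those of MNT, MXD4 and MLX. Of all 35116 windows of that length 7.26% held it, and 8.34% of the windows of protein-coding genes. The stretches are shown because they are the site that the network's own dimers recognise, with the E-box in capitals and each read 5′ to 3′ on the gene's strand, upstream of the gene as GENCODE 29 annotates it. They lie at chr17:2401218-2401283 (MNT, minus strand), chr4:2262312-2262359 (MXD4, minus strand) and chr17:42567020-42567067 (MLX, plus strand).
MNT: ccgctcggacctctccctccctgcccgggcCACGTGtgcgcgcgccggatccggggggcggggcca
MXD4: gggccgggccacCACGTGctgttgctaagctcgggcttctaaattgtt
MLX: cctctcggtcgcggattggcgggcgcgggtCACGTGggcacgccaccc
The GC box GGGCGG, searched on both strands, of the kind bound by KLF and SP factors, was in 11 of the 14 windows, at least 1 for each of the 9 genes, against 45.0% of all windows and 56.3% of those of protein-coding genes. A match describes the letters and shows no binding.

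MYC was the most abundant of the 10 genes per length in scramble and by the mean of the shKLF5 libraries, and MGA the least. In scramble MYC had a level of 68.3 TPM, followed by MAX at 26.3, MNT at 21.0, MLX at 13.6, MXD3 at 12.5, MXD4 at 8.87, MXI1 at 4.86, MXD1 at 3.27, MYCL at 3.003 and MGA at 1.33. In the shKLF5 libraries the first 5 places were the same, with MYC at 64.4 ± 6.66 TPM (SD, n = 2), MAX at 47.0 ± 12.0, MNT at 43.0 ± 1.64, MLX at 16.4 ± 0.841 and MXD3 at 8.94 ± 4.01. The spreads of MYC and MAX overlapped there, though MYC was higher within each library (69.1 against 38.5 TPM in library 1, 59.7 against 55.5 in library 2). MAX and MNT also overlapped and changed order, at 38.5 against 44.2 in library 1 and 55.5 against 41.9 in library 2. MXI1 (7.19 ± 0.995 TPM), MYCL (6.87 ± 0.358), MXD4 (6.77 ± 3.45) and MXD1 (4.94 ± 1.17) came next. Each of them overlapped its neighbour in spread, and MGA followed at 2.35 ± 0.291 TPM.

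**Figure D1:**
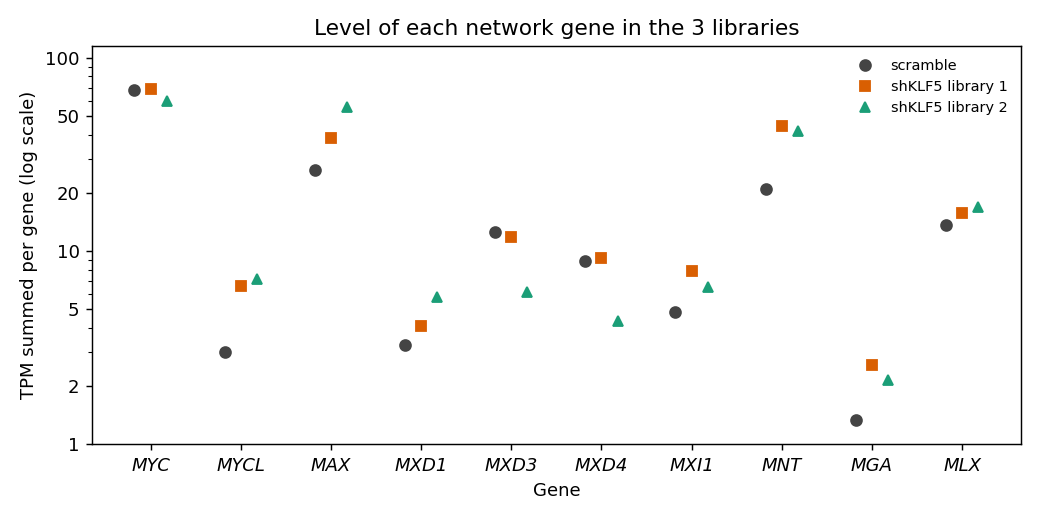
TPM summed per gene (log axis) for the 10 network genes in scramble (circles), shKLF5 library 1 (squares) and shKLF5 library 2 (triangles). MYC lies between 59.7 and 69.1 TPM in all 3 libraries, MNT lies at 21.0 in scramble and at 44.2 and 41.9 in the shKLF5 libraries, and MXD3 and MXD4 are lowest in library 2.

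None of the 10 genes passed the test between shKLF5 and scramble. The quasi-likelihood test of edgeR gave 0 of 20629 genes (0.0%) a Benjamini-Hochberg adjusted p under 0.05. An unadjusted p under 0.05 was found for 1893 genes (9.18%; 5.68% of all genes with higher and 3.5% with lower values), and 0 of the 10 members were among them. DESeq2 called 116 genes (0.681%) and edgeR's legacy fit 21, again with none of the 10. In TMM-scaled CPM 4 members (MYCL, MAX, MNT and MGA) were higher by value in both shKLF5 libraries and 3 (MYC, MXD3 and MXD4) were lower in both, against 37.9% and 36.5% of all genes. In TPM, which is not TMM-scaled, 7 were higher in both and 1, MXD3, was lower in both, against 65.2% and 11.3% of all genes. On both scales the members' counts lie near the shares over all genes. In CPM, of genes averaging 10 CPM or more, as all 10 members do, 21.8% were higher and 52.9% lower in both. Beside these shares the members were more often higher and less often lower, which was not tested. Scaling matters here because the TMM factors were 0.82 in scramble and 1.11 and 1.10 in the shKLF5 libraries: the median log2 fold change of all genes was 0.04 after TMM and 0.47 with library size alone.

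Among the activators, MYC (ENSG00000136997; GRCh38 chromosome 8, 127735434 to 127741434), the broadly acting family member, had 4371, 4264 and 3834 counts in scramble, library 1 and library 2. In CPM it had 164 against 119 and 110. Both shKLF5 libraries lay below scramble and close to each other. This is a log2 fold change of -0.52 (SE 0.34, 95% interval from -1.30 to 0.26, edgeR adjusted p = 0.661), and with library size alone it was -0.09. MYCL (ENSG00000116990; chromosome 1, 39895426 to 39902256), a paralog with a narrower expression range, moved the other way by value. Its 247 counts in scramble stood against 530 and 593 in shKLF5, which is 9.29 CPM against 14.8 and 17.1. Its log2 fold change was 0.78 (SE 0.44, -0.23 to 1.78, edgeR adjusted p = 0.614), the largest positive value of the 10 genes. In TPM MYC exceeded MYCL in every library, at 68.3, 69.1 and 59.7 against 3.003, 6.62 and 7.13. MYCN, the third family member and not one of the 10, had 20, 33 and 4 counts.

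MAX (ENSG00000125952; chromosome 14, 65006174 to 65102695), the shared dimer partner of both sides of the network, was higher by value, more so in library 2. Scramble had 906 counts, library 1 had 1354 and library 2 had 2066, which is 34.1, 37.8 and 59.4 CPM. The shKLF5 libraries differed from each other by more than library 1 differed from scramble. The log2 fold change was 0.51 (SE 0.42, -0.46 to 1.49, edgeR adjusted p = 0.722), at 0.15 in library 1 and 0.80 in library 2. MLX (ENSG00000108788; chromosome 17, 42567068 to 42573239) was flat in CPM, with 29.1 in scramble against 27.2 and 30.5, so that scramble lay between the shKLF5 libraries. Its log2 fold change was -0.01 (SE 0.38, edgeR adjusted p = 0.993).

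MNT, known to be expressed in both resting and dividing cells, and MGA were higher by value in both shKLF5 libraries. MNT (ENSG00000070444; chromosome 17, 2384060 to 2401118) had 1637, 2700 and 2908 counts, which is 61.6 CPM in scramble and 75.3 and 83.6 in the shKLF5 libraries. The shKLF5 libraries lay close together and above scramble. The log2 fold change was 0.37 (SE 0.36, -0.46 to 1.20, edgeR adjusted p = 0.759), and 0.80 with library size alone. MGA (ENSG00000174197; chromosome 15, 41621224 to 41773081) had 340, 566 and 577 counts, and its CPM was 12.8 in scramble and 15.8 and 16.6 in shKLF5, with no overlap. Its log2 fold change was 0.34 (SE 0.42, edgeR adjusted p = 0.809).

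The 4 MXD family genes did not move together. MXD3 (ENSG00000213347; chromosome 5, 177301461 to 177312757), the member known from cells in S phase, had 494, 437 and 301 counts. In CPM this was 18.6 in scramble and 12.2 and 8.66 in shKLF5, so that both shKLF5 libraries were below scramble. Its log2 fold change of -0.83 (SE 0.43, -1.83 to 0.17, edgeR adjusted p = 0.595) was the lowest of the 10 genes. MXD4 (ENSG00000123933; chromosome 4, 2247432 to 2262294) had 514, 555 and 294 counts, or 19.3, 15.5 and 8.46 CPM. Library 2 stood apart for both genes, most for MXD4, whose log2 fold change of -0.69 (SE 0.48, edgeR adjusted p = 0.678) was made of -0.32 in library 1 and -1.19 in library 2. MXD1 (ENSG00000059728; chromosome 2, 69897688 to 69942945), the member linked to squamous differentiation, had 524, 644 and 920 counts, or 19.7, 17.97 and 26.5 CPM. Scramble lay between the 2 shKLF5 libraries, at a log2 fold change of -0.13 in library 1 and 0.42 in library 2. MXI1 (ENSG00000119950; chromosome 10, 110207605 to 110287365) also had scramble in between, with 318, 455 and 363 counts or 12.0, 12.7 and 10.4 CPM and a log2 fold change of -0.05 (SE 0.43). For MXD1 and MXI1 edgeR's adjusted p was 0.916 and 0.978. MXD3 shares bases with RAB24 and PRELID1, MXD1 with SNRNP27, MAX with FNTB and MLX with PSMC3IP, and since the use of strand is not given in the sources used here, reads of such stretches are divided by estimate.

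**Figure D2:**
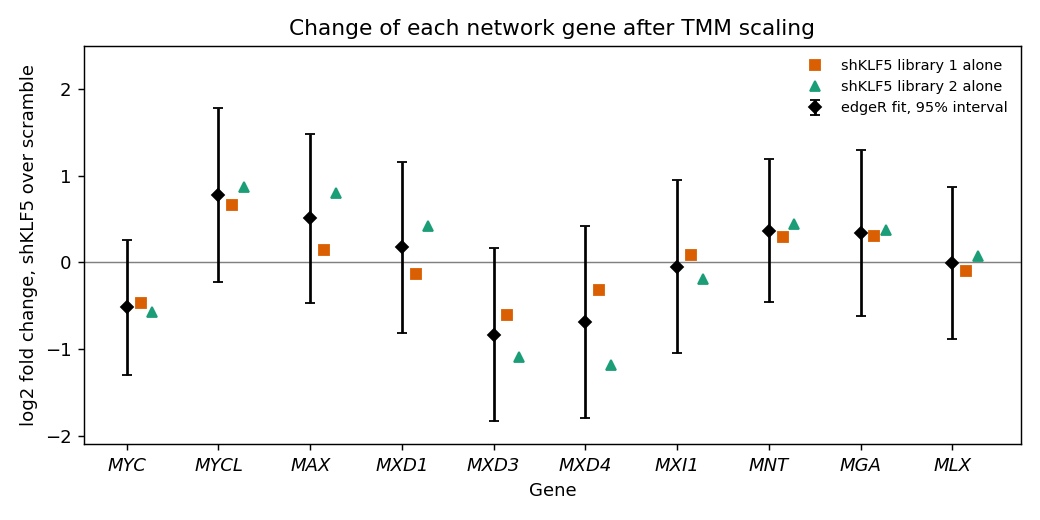
Log2 fold change of shKLF5 over scramble for the 10 network genes: edgeR estimate with its 95% confidence interval (diamonds), and each shKLF5 library alone (squares and triangles). Every interval includes 0; the estimates run from -0.83 for MXD3 to 0.78 for MYCL, and the 2 libraries are far apart for MAX, MXD1, MXD3 and MXD4.

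Genes most like MYC in pattern were sought among 8969 protein-coding genes averaging 10 CPM or more, by distance over the 2 log2 fold changes against the shared scramble library. The nearest were DEGS1, NDUFA9, CUL4A and PGP, at distances from 0.00798 to 0.0150 from MYC, which stood at -0.47 and -0.58 in libraries 1 and 2. For MNT, the opposing partner with the highest TPM in scramble, they were BIN1, C16orf45, CRY2 and HELZ. With 3 libraries such likeness is loose, since 197 genes lay within 0.1 of MYC and 102 within 0.1 of MNT.

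By value, the transcript makeup of MAX and MNT differed between libraries as well as the total. MAX has an optional exon of 27 bases near its start (chr14:65101546-65101572, minus strand), which sets the longer common protein form apart from the shorter one. The junction is shown with the exon in capitals for MAX-205, which carries it, and for MAX-204, which does not, read 5′ to 3′ from GENCODE 29 on GRCh38.
MAX-205: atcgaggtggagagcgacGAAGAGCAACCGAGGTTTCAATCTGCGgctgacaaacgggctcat
MAX-204: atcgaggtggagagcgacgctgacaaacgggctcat
MAX-204 was the main transcript, with 492 counts in scramble against 767 and 856, while MAX-205 had 108, 47.1 and 94.2. Over all MAX transcripts, those with the exon held 43.4%, 40.7% and 51.5% of counts in scramble and shKLF5 libraries 1 and 2. In TPM their share was 54.0%, 54.8% and 53.5%. MAX-205 itself took 11.9% of MAX counts in scramble and less in both shKLF5 libraries, 3.48% and 4.56%, and in TPM 9.55% against 2.97% and 3.94%. The single transcript thus had a smaller share in both, while the whole group with the exon, which includes forms with another 3′ end, did not. Another group carries an extra exon near the 3′ end (85 bases in MAX-206), with a shorter coding sequence (309 bases in MAX-206 against 480 in MAX-205). Its share of MAX counts was 17.4%, 21.4% and 30.8% in scramble and libraries 1 and 2, from 158, 290 and 635 counts. Much of the excess of MAX counts in library 2 lay there and in MAX-202, with 87.6, 136 and 361 counts. One of the group, MAX-211, was listed at 0 in scramble and library 1 and had 129 counts in library 2. MAX-206, annotated as a target of nonsense-mediated decay, had 47.6, 128 and 318 counts.

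MNT-201, the full-length coding transcript, had 1190 counts in scramble against 1929 and 2152, which was 72.7%, 71.5% and 74.0% of MNT counts. The rest came from noncoding fragments of the locus. MNT-204, a transcript of 556 bases with no coding sequence, had 18.3 counts in scramble against 159 and 166, and because it is short this was 1.5 TPM against 13.6 and 13.5. Summed over all transcripts MNT had 21.0 TPM against 44.2 and 41.9, but its coding transcripts alone had 7.95 TPM against 13.4 and 14.3.

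The other genes were led by 1 or 2 transcripts. For MYC these were MYC-202 (2749, 2468 and 2297 counts) and MYC-205 (1534, 1667 and 1461), and MYC-202 held 3.99 percentage points less of MYC counts in shKLF5 than in scramble. MYCL-203 had 203 counts against 445 and 493. MXD1 came almost wholly from MXD1-201, with at least 99.1% of counts from coding transcripts. In MXD3 the retained-intron transcript MXD3-206 was the main one, with 298, 266 and 148 counts. Its coding transcripts together had 187, 165 and 148, so in counts the lower value in library 2 lay mostly in transcripts annotated as noncoding. In TPM both parts were lower there, with 6.14, 5.93 and 2.95 for the coding and 6.40, 5.84 and 3.16 for the other transcripts of MXD3. MXD4-201, the coding transcript of MXD4, had 358, 427 and 196 counts. MXI1-201 had 113 counts against 200 and 212, while MXI1-202, which starts from an upstream first exon, had 90.6, 135 and 68.5. MGA-211 had 224, 377 and 382 counts, and MLX-203 had 572, 694 and 716. All transcript values are kallisto's division of shared reads.

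**Figure D3:**
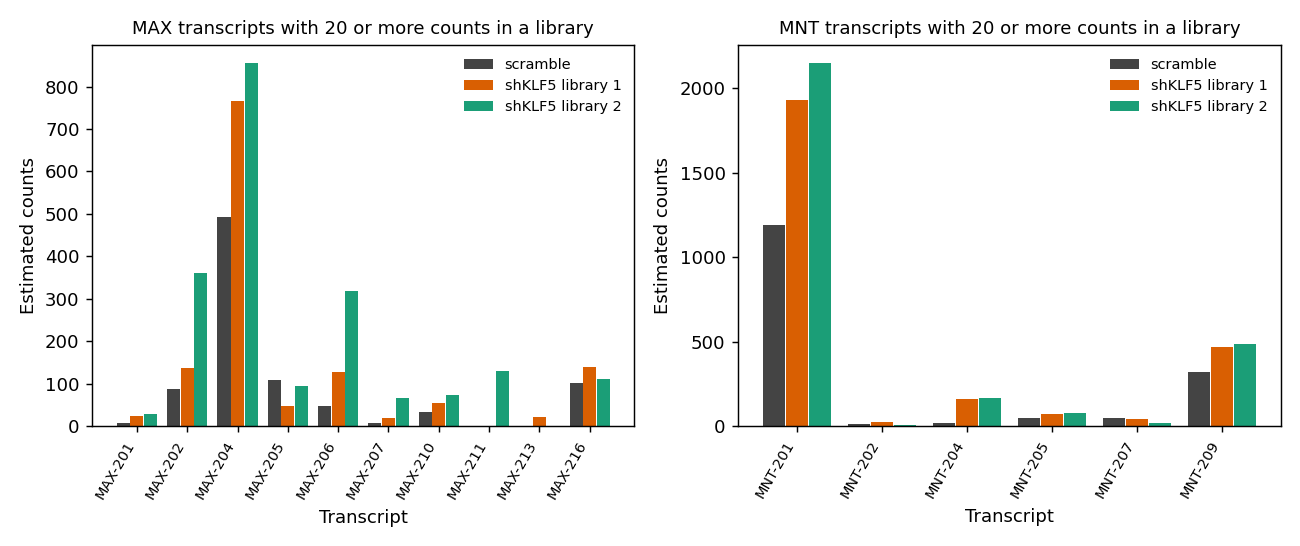
Estimated counts of each MAX (left) and MNT (right) transcript with at least 20 counts in a library, in scramble, shKLF5 library 1 and shKLF5 library 2. MAX-204 and MNT-201 lead in every library; MAX-202 and MAX-206 reach 361 and 318 counts in library 2, and MNT-204 goes from 18.3 counts in scramble to 159 and 166.

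The balance of activators to opposing partners was lower in both shKLF5 libraries, a comparison within each library that needs no scaling between libraries. MYC and MYCL together had 71.3 TPM in scramble, 75.7 in library 1 and 66.8 in library 2. The 6 opposing partners together had 51.8, 79.7 and 66.7 TPM. The ratio was 1.38 in scramble, 0.950 in library 1 and 1.002 in library 2, a log2 difference of -0.50 ± 0.05 (SD, n = 2) that carries no test. After TMM, MYC stood at -0.52, beside a median of 0.04 over all genes and -0.18 over those averaging 10 CPM or more. MYC was thus also lower against the median gene, and the lower ratio was not shown to be particular to these partners. Over coding transcripts alone the ratio was 2.80 against 2.13 and 2.07. In estimated counts, activators held 54.7% of the sum in scramble (95% exact binomial interval 53.6% to 55.7%), 47.2% in library 1 (46.3% to 48.2%) and 45.2% in library 2 (44.2% to 46.2%). These intervals cover counting error only.

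How much of the lower ratio in shKLF5 rested on MNT depended on the unit. MNT made up 40.5% of the opposing TPM in scramble, 55.4% in library 1 and 62.8% in library 2, and 31.2%, 37.7% and 44.3% over coding transcripts. The share of MXD3 was 24.2% in scramble against 14.8% and 9.15%, and that of MXD4 17.1% against 11.5% and 6.49%. These are shares of a sum that was larger in shKLF5. In TPM MXD3 itself had 12.5, 11.8 and 6.11 and MXD4 8.87, 9.21 and 4.33, so MXD4 was not lower in library 1. With MNT left out, the TPM ratio was 2.31 in scramble against 2.13 and 2.69, so scramble lay between the shKLF5 libraries (mean log2 difference 0.05). In CPM without MNT it was 2.11 against 1.80 and 1.80, a log2 difference of -0.23 against -0.49 with MNT. In TPM of coding transcripts without MNT it was 4.07 against 3.42 and 3.71, a log2 difference of -0.19 against -0.41. In those units the ratio was lower in both shKLF5 libraries also without MNT. Taking MYC against each partner in TPM, the ratio to MNT was 3.26 in scramble against 1.56 and 1.43, and the ratio to MAX 2.60 against 1.80 and 1.08. It was also lower in both shKLF5 libraries against MGA (51.4 in scramble, 27.01 and 27.8 in shKLF5), MXI1 (14.1, 8.75 and 9.20), MXD1 (20.9, 16.8 and 10.4) and MLX (5.03, 4.38 and 3.52). The ratio to MXD3 went the other way, at 5.45 against 5.87 and 9.78. For MXD4 scramble lay in between, with 7.70 against 7.51 and 13.8. Over coding transcripts in TPM the ratio to MNT was 8.59 in scramble against 5.16 and 4.17. To MXD3 it was 11.1 against 11.7 and 20.3 on that scale, but 23.4 against 25.9 and 25.9 in counts of coding transcripts. The size of these differences thus depends on the unit.

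**Figure D4:**
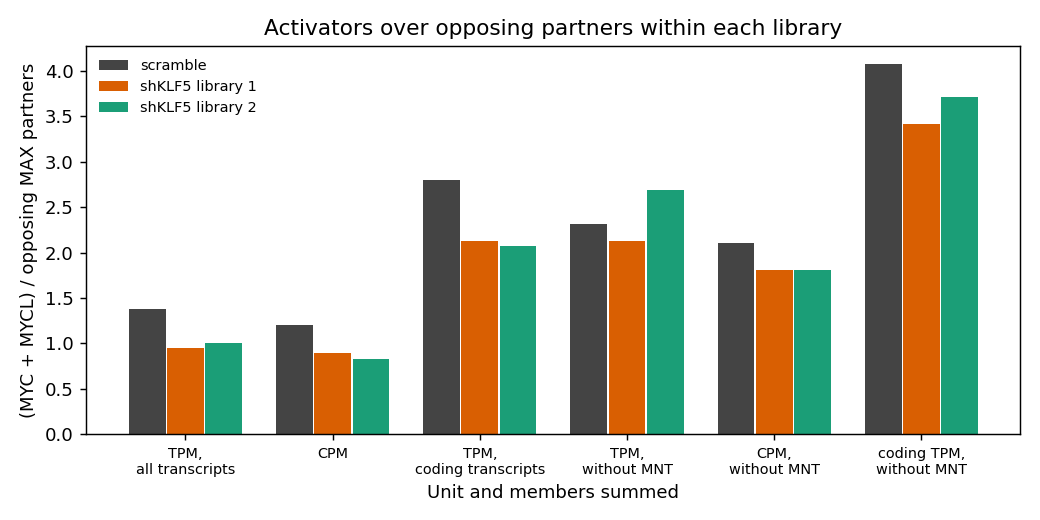
Ratio of MYC plus MYCL to the opposing MAX partners within each library, in 3 units, with all 6 partners (left 3 sets of bars) and without MNT (right 3 sets). With all partners scramble is highest in each unit (1.38 in TPM); without MNT in TPM library 2 is highest, at 2.69.

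Genes that work with the network or are known to answer to it were read from the same table, and 0 of them passed edgeR's test with adjustment over all genes. Their counts are to be read against all genes, of which 36.5% were lower and 37.9% higher in both libraries, and against abundant genes. Of 9338 genes averaging 10 CPM or more, 52.9% were lower and 21.8% higher in both (median -0.18), and of 3501 averaging 50 CPM or more, 59.6% and 16.7% (median -0.24). Of 11 corepressor genes used by the MXD proteins and MNT, 9 had lower values in both libraries, 1 was higher in both and 1 was in between, which is 81.8% lower in both, with a list median of 92.3 CPM. The median log2 fold change was -0.40 against 0.04 for all genes (0.03 against 0.47 with library size alone). SIN3A, the scaffold, stood at -0.54 (SE 0.35) and HDAC2, a deacetylase, at -0.65 (SE 0.37), while SIN3B, its paralog, named after its values were seen, stood at 0.33 (SE 0.36). RBBP4, a histone-binding subunit, stood at -0.49, and SAP30, which joins SIN3 to the deacetylases, at -0.54. Of 10 genes of the MGA complex 6 had lower values in both libraries and 0 had higher ones (median -0.11, or 0.32 with library size alone). The list's median level was 27.6 CPM, and its 60% lower in both lies near the 52.9% of genes at 10 CPM or more. TFDP1, the dimer partner of E2F6, was the lowest at -1.14 (SE 0.46; -0.71 and -1.75 in libraries 1 and 2), followed by CBX3, a chromodomain protein, at -0.60, YAF2, a RING1-binding subunit, at -0.53 and WDR5, a scaffold of chromatin complexes, at -0.36.

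Of 15 cofactors of MYC, 4 were higher in both libraries (26.7%) and 6 lower in both (40%), against 37.9% and 36.5% of all genes. Their median log2 fold change was -0.03, or 0.40 with library size alone. The cofactors are abundant, at a list median of 79.4 CPM. Among genes at 50 CPM or more, the shares were 16.7% higher and 59.6% lower. Beside those shares the cofactors were more often higher and less often lower, which was not tested. RUVBL1, an ATPase of chromatin remodellers, stood at -0.54 (SE 0.35), KAT5 and KAT2A, acetyltransferases, at -0.47 and -0.36, and CDK9, the elongation kinase, at -0.45. Of 13 genes for the stability and turnover of the MYC protein, 8 had lower values in both libraries and 2 had higher ones. These 61.5% and 15.4% lie near the shares of abundant genes. The list's median was -0.30, or 0.12 with library size alone. Since the list mixes genes that stabilise MYC with genes that mark it for breakdown, this median gives no direction for MYC protein. SKP2, a ubiquitin ligase subunit, had 2949, 2249 and 1864 counts and stood at -0.93 (SE 0.35). AURKA and PLK1, mitotic kinases that shield MYC family proteins, stood at -0.75 and -0.50. USP36, a nucleolar deubiquitinase, had 2326, 3312 and 7127 counts and stood at 0.77 (SE 0.51), with library 2 alone well above scramble. With only genes at a mean CPM of 5 or more kept, the medians were -0.22 for the corepressors and 0.07 for the MGA complex. They were 0.15 for the cofactors and -0.13 for the stability and turnover genes.

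Of 48 genes known as induced by MYC, 35 had lower values in libraries 1 and 2 alike, 0 were higher in both and 13 were in between, with a median log2 fold change of -0.35. This is 72.9% lower in both, beside 36.5% of all genes and 59.6% of those averaging 50 CPM or more. The list is itself abundant, with a median of 74.5 CPM. LDHA, lactate dehydrogenase, stood at -1.13 (SE 0.38), UNG, a DNA repair glycosylase, at -1.10 (SE 0.36), PAICS, of purine synthesis, at -0.92 (SE 0.35) and NCL, nucleolin, at -0.87 (SE 0.34). These 4 had the smallest p of the list, with edgeR adjusted p from 0.474 to 0.509. ODC1, ornithine decarboxylase and a classic MYC target, named here after its values were seen, stood at 0.03, with 3287, 3708 and 5196 counts. At a mean CPM of 5 or more the median of the list was -0.17, against 0.02 for all genes. With library size alone it was 0.08, against 0.47 for all genes. Its sign thus depends on the scaling, and it lies below the median of all genes on both. After TMM, genes averaging 50 CPM or more had a median of -0.24, nearer to the list's -0.35 than the 0.04 of all genes. Of 10 genes known as repressed by MYC, 9 were tested, 5 of them higher in both libraries (55.6%) and 4 lower in both (44.4%), against 37.9% and 36.5% of all genes. Of genes averaging 50 CPM or more, 16.7% were higher and 59.6% lower in both, and this list's median level was 91.5 CPM. The median log2 fold change of the repressed list was 0.56, but 0.99 with library size alone, 0.13 at a mean CPM of 5 or more and 0.34 without shKLF5 library 1. CDKN1C, a cell cycle inhibitor, had 17, 73 and 81 counts and stood at 1.77 (SE 0.65), and GADD45A, a stress-response gene, at 0.98 (SE 0.37). NDRG1, a differentiation gene, stood at -1.07 (SE 0.42) and CCND1, cyclin D, at -0.86 (SE 0.35).

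**Figure D5:**
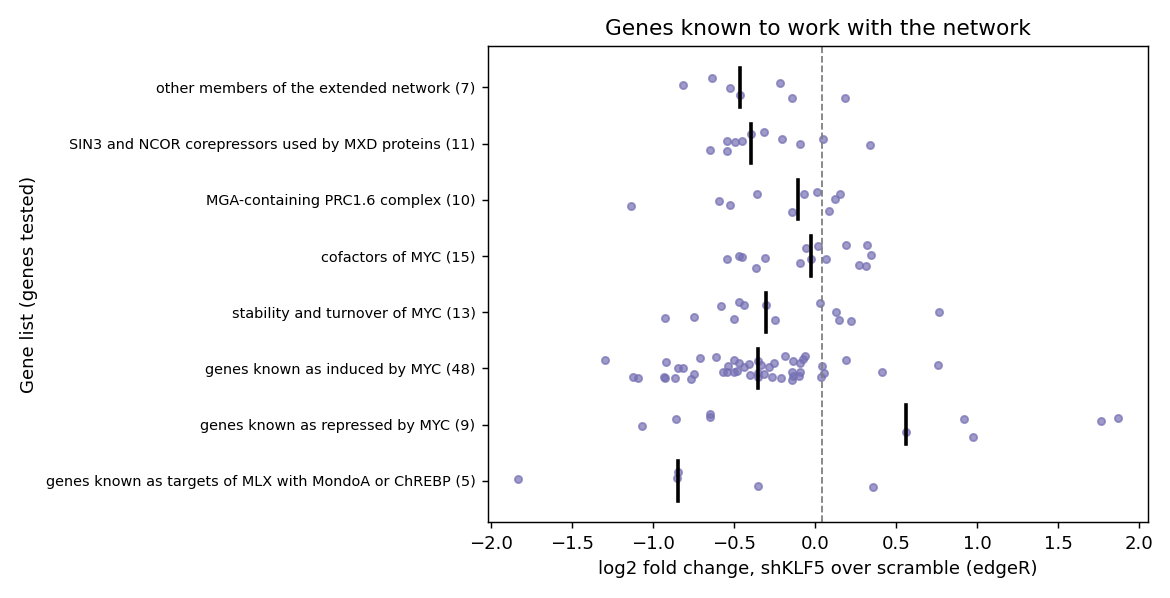
Log2 fold change of shKLF5 over scramble (edgeR) for each tested gene of 8 lists; black bars are list medians and the dashed line is the median of all genes, 0.04. The list induced by MYC has a median of -0.35 with LDHA at -1.13; the list repressed by MYC holds NDRG1 at -1.07 and CDKN1C at 1.77.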

How the data were processed

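Total RNA of TE5 cells gave 3 libraries, prepared with a TruSeq kit for HiSeq sequencing, per the labels' protocols. The submitters' processing notes name kallisto, DESeq2 and the build hg19, without versions. Per the file headers, the authors deposited kallisto's estimated counts for each transcript, without normalisation. TPM was deposited beside them and sums to a fixed total per library. Length and effective length in bases are the other deposited columns. Which transcript index was used, and whether strand was, is not given in the sources used here.

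Of 196354 transcripts, 181857 (92.6%) matched GENCODE 29 by identifier, whose GRCh38 coordinates are printed. Counts and TPM were summed over 52992 genes, and counts were rounded. edgeR 4.0.16 in R 4.3.3 was run with filterByExpr, TMM and the quasi-likelihood F test (legacy = FALSE) on 20629 genes, with 1 residual degree of freedom and Benjamini-Hochberg adjustment at 0.05. The spread borrowed across genes carried a median of 6.86 prior degrees of freedom. The common dispersion equals a biological coefficient of variation of 32.9%. For SE, the size of the log2 fold change was divided by the root of F. Single-library fold changes used a prior count of 2. Scripts were tested on simulated data with a smaller spread between libraries than these have, which gives no measure of power here. Alternatives used DESeq2 1.42.0 and limma 3.58.1.

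The members and lists were chosen with earlier results of these data known. Named genes are the 10 members, KLF5, up to 4 genes with the smallest p from each list, and the 4 nearest in pattern to MYC and to MNT. SIN3B, MLXIP, MYCN and ODC1 fall outside this rule and were chosen after their values were seen. From the other cell types only levels were used. Sums over members carry no test. SD is over the 2 shKLF5 libraries.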

Additional observations from a re-analysis of the deposited data

How the results depend on the processing

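Over 12 alternatives the 10 genes gave 120 values, of which 107 kept their direction, and none reached an adjusted p under 0.05 in the 10 alternatives with a test (lowest 0.328, for MYCL with library size alone). The 13 that changed sign belong to genes near 0. MXI1 turned positive with library size alone (0.38), a mean CPM of at least 5 (0.13), counts scaled from TPM and length (0.10), and limma on log2(TPM + 1) (0.48) or log2(TPM + 0.1) (0.55). MLX turned positive with library size alone (0.42), a mean CPM of at least 5 (0.17), both limma fits (0.25 and 0.27) and without mitochondrial genes (0.019). With 1 shKLF5 library left out in turn, a value with no test, the ranges were -0.13 to 0.42 for MXD1, -0.20 to 0.086 for MXI1 and -0.10 to 0.070 for MLX, as well as 0.15 to 0.80 for MAX and -1.19 to -0.32 for MXD4. The count of all genes called, 0, was 21 with edgeR's legacy fit, 116 with DESeq2 and 2 without mitochondrial genes. The count with an unadjusted p under 0.05, 1893, was 2852 with library size alone, 599 at a mean CPM of at least 5 and 1104 with DESeq2. The log2 change of the activator ratio, -0.50, was -0.41 over coding transcripts and -0.58 for MYC alone, and without MNT, chosen after seeing the data, it was 0.05 in TPM, -0.23 in CPM and -0.19 in TPM of coding transcripts. The shift in a leading transcript's share, in percentage points, was -5.34 in counts and 0.059 in TPM for MXD3-206. In the same order it was 2.12 and 5.16 for MXD4-201, 15.7 and 8.79 for MXI1-201, 0.056 and -5.67 for MNT-201, and -4.71 and 2.37 for MLX-203. For MXD3-206, MNT-201 and MLX-203 the sign thus differed between the units. The cause of these changes was not tested. No count of calls could be had without a shKLF5 library, since no residual degree of freedom remains. No paired analysis was possible because the groups share fewer than 2 replicate numbers. Depth limits MGA, MXI1 and MYCL most, with 247 to 340 counts in scramble.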

Other observations

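Of 7 other genes of the extended network 4 had lower values in both shKLF5 libraries and 1 was higher in both (57.1% and 14.3%, against 36.5% and 37.9% of all genes). The list's median level was 40.4 CPM, and its shares lie near the 52.9% and 21.8% of genes averaging 10 CPM or more. Its median log2 fold change was -0.47, but -0.04 with library size alone and -0.16 at a mean CPM of 5 or more. It was -0.29 without shKLF5 library 2, -0.80 without library 1, and 0.06 in limma's fit on log2(TPM + 1). MLXIP, which encodes the nutrient sensor MondoA, had 2510, 3476 and 4089 counts in scramble and libraries 1 and 2 and stood at 0.18 (SE 0.36), while MLXIPL, which encodes ChREBP, had 1720 against 1644 and 1291 and stood at -0.64 (SE 0.36). Of 7 known target genes of these factors 5 were tested, with lower values in both libraries for 3 (60%) and higher ones for 1 (20%). These shares too lie near the 52.9% and 21.8% of genes averaging 10 CPM or more, at a list median of 47.3 CPM. The targets' median log2 fold change of -0.85 was carried more by library 2, at -0.42 without library 2 and -1.43 without library 1. With library size alone it was -0.42. ELOVL6, a fatty acid elongase, had 1306, 761 and 219 counts and stood at -1.83 (SE 0.62). In TPM ELOVL6 had 19.0 in scramble against 11.4 and 9.99, so library 2 lay far closer to library 1 than in counts. FASN, fatty acid synthase, stood at -0.85 (SE 0.39) and ACLY, ATP citrate lyase, at -0.85 (SE 0.46). TXNIP, the glucose-responsive brake on glucose uptake, had 110, 194 and 180 counts and stood at 0.36 (SE 0.50). None passed edgeR's test with adjustment over all genes. TFAP4, an E-box factor known as a target of MYC, had 570, 474 and 387 counts and stood at -0.82 (SE 0.40) and USF2, another E-box factor, at -0.22. HIF1A, the hypoxia factor, had 6433, 7950 and 4458 counts and stood at -0.47 (SE 0.41), made of -0.13 in library 1 and -0.92 in library 2.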
